A study of Mus musculus with 18 samples.

Results

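Among the 49184 mouse genes to which the deposited transcripts of the ACL rupture series were summed, 67 protein-coding genes belong to the 4 classical axon guidance systems. They were picked out by gene symbol: 20 semaphorins and 9 plexins, 3 Slits and 4 Robos, 4 netrins and 5 genes named Unc5, and 8 ephrins and 14 Eph receptors. One of the Unc5 genes, Unc5cl, is taken in by its name only and encodes no netrin receptor. The study asked how articular cartilage changes early after rupture of the anterior cruciate ligament (ACL) by a single mechanical load to the right knee of male C57bl6 mice aged 12 weeks. The labels name no transgene or deletion, and the groups were defined by injury, side and time. RNA came from pools of knees, of which the cartilage caps of the femoral condyles were taken without the bone below. There were 3 libraries of injured right knees and 3 of uninjured contralateral left knees at day 1 post injury, the same numbers at day 7 post injury, and 6 libraries of knees from naïve mice without injury. All naïve libraries are labelled as day 7, so comparisons of day 1 with naïve are also between days. The number of mice per pool differs between the sources, and the study ties the pool size at day 7 to cartilage that was partly lost by then, so pool size and remaining cartilage cannot be told apart from the day. Injured and contralateral knees of a pool came from the same mice, and left and right naïve knees were pooled separately, but the labels do not tie libraries to pools. Libraries were therefore compared as if independent, and p-values measure only the spread between these libraries.

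Total estimated counts ran from 16074762 to 41794005 per library with a median of 25465706. One library stood apart: in day 7 contralateral replicate 1 the 10 most abundant genes took 42.5% of all counts, against 16.6% to 29.8% in the other 17. For this library the total of guidance genes called against its group is given with and without it. Its summed level of chondrocyte markers was 13535 CPM (counts scaled to a common library size), against 4428 and 5161 CPM in the other 2 libraries of its group. Its sum of erythroid genes was high too, at 64543 CPM against 29229 and 31321 CPM. Markers of chondrocytes were present in every library, led by Col2a1, and their summed level in naïve libraries was 5140 ± 1294 CPM (SD, n = 6). The caps also held RNA of other cells. Summed over 7 globin and other erythroid genes, the naïve level was 34496 ± 3942 CPM. Neutrophil and marrow markers summed to 12142 ± 1953 CPM and skeletal muscle markers to 6514 ± 2548 CPM, means that also exceed that of the chondrocyte markers. Macrophage markers summed to 2626 ± 300 CPM and osteoclast markers to 1467 ± 266 CPM. Such sums over different genes do not measure shares of cells. All levels below are those of the mixed tissue, and which cells express a gene was not tested.

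Axon guidance molecules are secreted or membrane-bound cues and the receptors that read them. Semaphorins bind plexins, often with a neuropilin as partner. Slits bind Robos, netrins bind Dcc, neogenin and Unc5 receptors, and ephrins, which are themselves held in the membrane, bind Eph receptor tyrosine kinases on a neighbouring cell. They were named for steering growing axons, but most are used by other tissues as well, where they act on cell adhesion, migration, vessel growth and bone remodelling. Ephb4 with its ligand Efnb2, and Sema4d with its receptor Plxnb1, are known from vessels and from the exchange between osteoblasts and osteoclasts.

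In naïve cartilage the guidance genes spanned a wide range, and the semaphorin and plexin families led. To compare genes with one another the deposited TPM values (transcripts scaled to a common library total), which allow for transcript length, were summed per gene and averaged over the 6 naïve libraries. By this measure 39 of the 67 genes reached 1 TPM, 9 reached 5 TPM and 4 reached 10 TPM. The highest in the whole set was Sema4d, a membrane semaphorin of leukocytes and osteoclasts, at 19.6 ± 2.47 TPM (SD, n = 6). Next came Sema4a at 16.6 ± 2.87 TPM and the plexins Plxnd1 at 15.04 ± 1.39 TPM and Plxnb2 at 12.2 ± 3.15 TPM. The spreads of Sema4d and Sema4a overlap, as do those of Sema4a and Plxnd1, so the order among these is not settled by the libraries.

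In the other families the leading gene was lower. Slit3 led the Slits at 5.70 ± 1.07 TPM with Slit2 beside it at 4.84 ± 1.15 TPM. Ntn1 led the netrins at 4.49 ± 0.963 TPM, Unc5b its family at 3.82 ± 0.688 TPM, Ephb4 the Eph receptors at 3.76 ± 0.625 TPM and Efna1 the ephrins at 2.54 ± 0.408 TPM. The spreads of Ntn4 (3.47 ± 0.622 TPM), Epha2 (3.31 ± 0.425 TPM) and Efnb1 (2.24 ± 0.386 TPM) overlap those of the leaders of their families, as do those of Slit2 and Slit3. Among the Robos 3 genes lay within their spreads of one another, Robo2 at 1.26 ± 0.347 TPM, Robo4 at 1.05 ± 0.252 TPM and Robo1 at 1.02 ± 0.308 TPM. Of the 7 Eph receptors called higher than naïve at day 7, 5 were under 1 TPM in naïve cartilage, Ephb2 at 0.694 ± 0.325 TPM, Epha4 at 0.575 ± 0.130 TPM, Epha3 at 0.532 ± 0.0850 TPM, Ephb6 at 0.4099 ± 0.1404 TPM and Ephb1 at 0.159 ± 0.0243 TPM. No gene of the set was at or under 3 counts in every library, but Epha6 never exceeded 5 counts, Ntn5 4, Epha8 14 and Efna3 16. These 4 were left out by the filter on low counts, and 63 genes were tested.

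**Figure D1:**
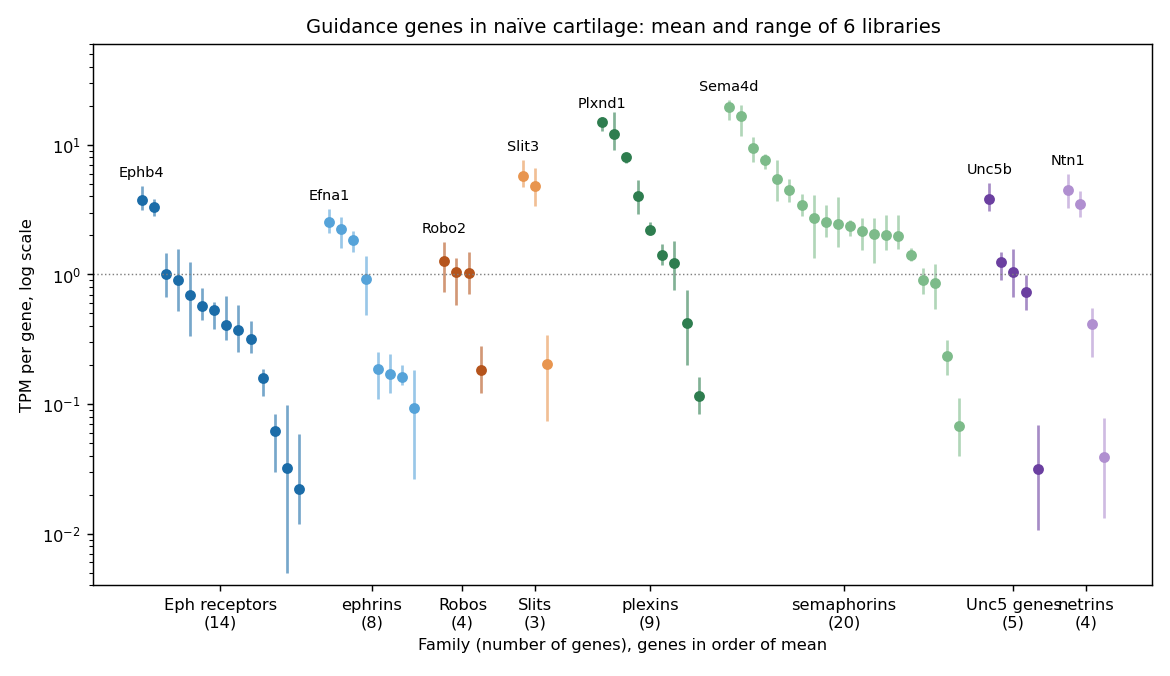
Level of each of the 67 guidance genes in naïve cartilage in TPM on a log scale, by family and in order of the mean. Points are means and lines the range of 6 libraries, a mean or a lowest value under 0.005 TPM is drawn at 0.005, the dotted line marks 1 TPM, and the leading gene of each family is named, from Sema4d at 19.6 TPM down to Robo2 at 1.26 TPM.

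At day 7 post injury more guidance genes were called higher than lower in injured cartilage, but how many depended on the scaling of the libraries. Genes were called at a false discovery rate (FDR) of at most 0.05 with a change of at least 1.5-fold in edgeR's quasi-likelihood test, fitted over all genes. Against naïve cartilage 29 of the 63 tested genes were called higher (46.0%) and 2 lower (3.17%), where 10.4% of all 21129 tested genes were called higher and 6.11% lower. Against the contralateral knees of the same day 20 were called higher (31.7%) and 3 lower (4.76%), where 9.33% of all 21262 tested genes were called higher and 3.23% lower. Without day 7 contralateral replicate 1 there were 24 higher and 0 lower, where 9.31% of all genes were called higher and 1.99% lower. With the mean length of a gene's transcripts in each library as an offset (the length offset) there were 14 higher and 1 lower. The share of all genes called with this offset is not given, so these last counts cannot be set against it. Over the 63 genes the log2 fold change had a median of 0.46 against naïve and 0.34 against contralateral, beside -0.04 and -0.05 over all tested genes. The 2 comparisons share the 3 injured libraries and are not independent of each other. In bulk tissue, more cells of a type and more RNA per cell cannot be told apart.

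The tests above use counts scaled by TMM (trimmed mean of M values), which sets the bulk of genes level between libraries. The deposited TPM values lack this step. With limma on log2(TPM + 0.1), a setting added after the data were seen, 12 guidance genes were called higher than naïve and 5 lower, where 4.72% of all genes were called higher and 15.3% lower. Against contralateral 5 were called higher and 0 lower, where 2.38% of all genes were called higher and 0.245% lower. The median over all genes was -0.32 and -0.06 on this scale, beside 0.09 and 0.24 over the 63 guidance genes, of which 49 and 43 lay above the median of all genes. Ephb2, Ephb3, Robo1, Efna4 and Sema3c were called higher in both comparisons, and Epha3, Ephb4, Efna2, Plxna1, Sema3b, Sema3f and Sema4c against naïve only. The 5 lower ones were Unc5cl, Unc5a, Sema4a, Sema4b and Plxnc1. Summed over the 67 genes the TPM level was 183 ± 19.3 in naïve, 212 ± 30.6 in day 1 contralateral, 281 ± 67.5 in day 1 injured, 179 ± 75.1 in day 7 contralateral and 195 ± 33.6 in day 7 injured libraries. Which scaling is nearer to the amounts in the tissue was not tested, and all fold changes below are those of the TMM-scaled counts.

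The calls were counted by family. Against naïve, 6 of 7 tested ephrins, 7 of 12 Eph receptors, 2 of 3 netrins, 9 of 20 semaphorins, 4 of 9 plexins and 1 of 4 Robos were higher, while none of the 3 Slits or the 5 Unc5 genes was. Against contralateral the counts were 4 ephrins, 6 Eph receptors, 1 netrin, 6 semaphorins, 2 plexins and 1 Robo. When day 7 contralateral replicate 1 was left out, Efna1, Plxnb1, Plxnb2, Sema4c and Sema4f were also called higher there and Sema3a was not. The 2 genes lower than naïve were Epha10 and Unc5cl, and against contralateral Sema4a was called lower as well. All of these lost their call against contralateral when that library was left out. Within the Eph receptors all 5 of the B class were higher than naïve and 2 of the 7 tested of the A class, with medians of 0.98 and 0.15 on the log2 scale. Of the A class 1 was lower. Against contralateral 4 of the B class and 2 of the A class were higher and 1 of the A class lower, with medians of 0.95 and -0.13. Whether families differ from one another was not tested. By level, of the 9 genes at 5 TPM or more in naïve cartilage 2 were higher than naïve (Plxnb2 and Sema3c), against 14 of the 30 between 1 and 5 TPM and 13 of the 24 tested under 1 TPM, and whether calls depend on the level was not tested either.

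**Figure D2:**
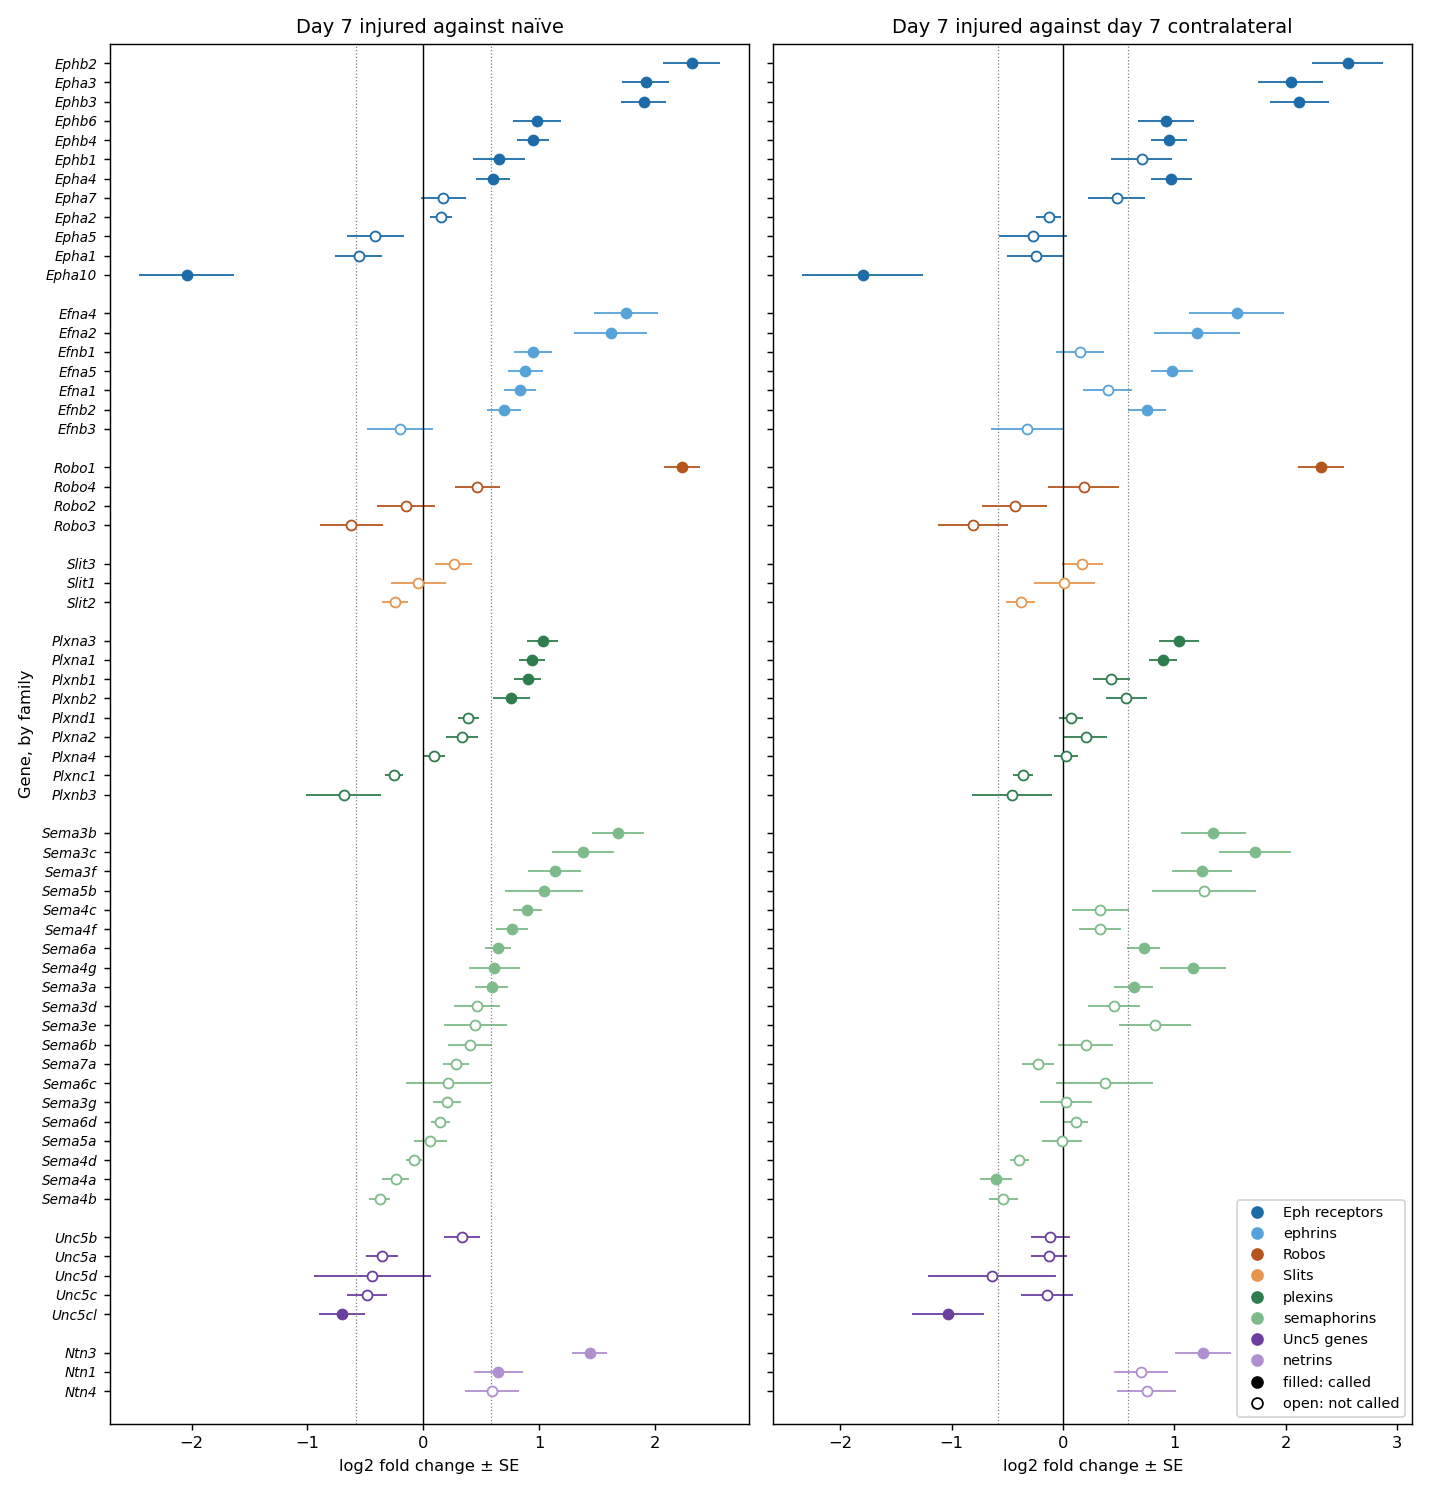
Log2 fold change with its standard error (SE) for the 63 tested guidance genes in day 7 injured cartilage, against naïve (left) and against day 7 contralateral (right), by family. Filled points were called, dotted lines mark a change of 1.5-fold, and Ephb2, Robo1, Epha3 and Ephb3 stand farthest to the right in both panels, at 1.90 or more.

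The 4 largest rises were those of Ephb2, Robo1, Epha3 and Ephb3. The promoters of these 4 genes are shown because the genes moved together, by 3.73-fold to 4.98-fold over naïve. Each is 300 bases long, 250 before and 50 after the start in RefSeq (GRCm38.p6), written 5′ to 3′ on the strand of the gene, with every CpG dinucleotide in capitals.

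Ephb2 (chr4:136835963-136836262, minus strand): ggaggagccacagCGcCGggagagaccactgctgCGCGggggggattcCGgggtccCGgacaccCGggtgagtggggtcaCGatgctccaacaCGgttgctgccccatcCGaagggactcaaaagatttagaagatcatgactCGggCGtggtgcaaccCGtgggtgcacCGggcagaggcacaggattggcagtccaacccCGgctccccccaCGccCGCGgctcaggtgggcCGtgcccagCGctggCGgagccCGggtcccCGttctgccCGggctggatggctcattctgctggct

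Robo1 (chr16:72662899-72663198, plus strand): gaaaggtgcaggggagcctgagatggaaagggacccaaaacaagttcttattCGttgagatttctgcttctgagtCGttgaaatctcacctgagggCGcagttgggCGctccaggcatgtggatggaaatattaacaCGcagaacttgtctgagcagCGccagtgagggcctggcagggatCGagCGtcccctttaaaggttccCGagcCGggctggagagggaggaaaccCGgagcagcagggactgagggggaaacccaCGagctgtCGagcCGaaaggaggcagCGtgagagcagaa

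Epha3 (chr16:63864126-63864425, minus strand): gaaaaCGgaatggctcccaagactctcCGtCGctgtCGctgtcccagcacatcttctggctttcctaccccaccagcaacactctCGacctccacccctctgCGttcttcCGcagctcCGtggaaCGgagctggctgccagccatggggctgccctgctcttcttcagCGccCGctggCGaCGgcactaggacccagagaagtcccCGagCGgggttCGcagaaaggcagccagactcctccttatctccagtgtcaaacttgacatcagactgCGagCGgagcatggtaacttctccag

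Ephb3 (chr16:21204545-21204844, plus strand): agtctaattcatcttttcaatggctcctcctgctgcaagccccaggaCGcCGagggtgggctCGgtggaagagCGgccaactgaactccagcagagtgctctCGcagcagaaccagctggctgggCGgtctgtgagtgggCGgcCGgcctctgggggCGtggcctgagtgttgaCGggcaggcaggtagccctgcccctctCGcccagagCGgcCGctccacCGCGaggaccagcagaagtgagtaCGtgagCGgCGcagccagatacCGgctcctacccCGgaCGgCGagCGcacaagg

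These windows hold 24, 15, 18 and 23 CpGs in the order shown, where the median over 19990 RefSeq promoters of protein-coding genes was 14. The RefSeq start lies 56 bases from that of the leading transcript for Ephb2, 17 for Epha3 and 40 for Ephb3, and for Robo1 it matches the start of Robo1-201 inside the gene's span of chr16:72308306-73046095. Of the 67 genes 58 had a RefSeq promoter entry outside chromosome 18, with 74 different windows. The median of these windows was 18.5 CpGs and 64.2% G or C, beside 57.0% over protein-coding promoters. The motifs searched, on both strands, were 3. The GC box GGGCGG was in 70.3% of the 74 windows and in 48.0% of all protein-coding promoters, and it occurs at 2 places in the Ephb3 window, at -128 and -113 from the start site, where its letters include a marked CpG. The TEAD motif GGAATG was in 12.2% against 13.3%, with a match in the Epha3 window at -244 from the start site, and the AP-1 motif TGANTCA in 4.05% against 6.98%, with none in the 4 windows. The 3 motifs do not overlap one another in these windows, and the 4 promoters share none of them.

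Ephb2, a receptor for B-class ephrins, showed the largest rise of all guidance genes. Its gene lies on chr4:136647539-136835988. In naïve libraries it ran from 4.17 to 10.6 CPM (median 6.06), and at day 1 it stood at 5.80, 5.11 and 9.37 CPM in contralateral and 7.04, 9.60 and 7.46 CPM in injured libraries. At day 7 the contralateral libraries were at 3.74, 5.75 and 6.93 CPM and the injured libraries at 26.7, 30.5 and 41.1 CPM. All 3 injured libraries of day 7 were therefore above each of the other 15, which lay between 3.74 and 10.6 CPM. The log2 fold change was 2.32 ± 0.25 (SE) against naïve (4.98-fold, FDR = 4.84e-06) and 2.56 ± 0.32 against contralateral (5.90-fold, FDR = 2.06e-05).

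Ephb3, a second receptor of the B class on chr16:21204755-21223305, followed the same pattern. It ran from 4.06 to 9.11 CPM in naïve libraries (median 6.22), with 5.66, 4.64 and 6.40 CPM in day 1 contralateral and 7.46, 6.77 and 7.05 CPM in day 1 injured libraries. The values at day 7 were 7.79, 4.46 and 4.93 CPM in contralateral and 21.7, 26.6 and 25.7 CPM in injured cartilage, so the injured group again lay above all others. Its log2 fold change was 1.90 ± 0.19 against naïve (FDR = 3.18e-06) and 2.12 ± 0.26 against contralateral (FDR = 1.80e-05). Epha3, an A-class receptor on chr16:63543534-63864175, was the third. Naïve libraries held 3.31 to 5.13 CPM (median 4.18), day 1 contralateral 4.69, 3.97 and 2.99 CPM, and day 1 injured 4.81, 3.05 and 5.76 CPM. At day 7 contralateral libraries held 2.03, 4.50 and 4.60 CPM and injured libraries 11.8, 15.6 and 19.7 CPM, without overlap. The log2 fold change was 1.92 ± 0.20 against naïve (FDR = 4.24e-06) and 2.05 ± 0.29 against contralateral (FDR = 8.01e-05).

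Ephb4, the receptor for Efnb2 in veins and in osteoblasts, was the most abundant Eph receptor and rose less steeply. It ran from 24.6 to 34.1 CPM in naïve libraries (median 30.3), and was at 25.5, 22.8 and 36.1 CPM in day 1 contralateral and 32.7, 30.9 and 36.4 CPM in day 1 injured libraries. Day 7 contralateral libraries were at 32.3, 26.3 and 29.2 CPM and day 7 injured libraries at 52.3, 52.6 and 64.8 CPM, again the 3 highest of all. The log2 fold change was 0.94 ± 0.14 against naïve (FDR = 9.41e-05) and 0.95 ± 0.16 against contralateral (FDR = 0.000403). Ephb6, whose kinase domain is inactive, was at 1.93 to 2.87 CPM in naïve libraries (median 2.04), 2.22, 1.55 and 2.48 CPM in day 1 contralateral and 2.88, 1.65 and 3.15 CPM in day 1 injured libraries. At day 7 it held 2.81, 2.14 and 2.03 CPM in contralateral and 4.22, 3.86 and 4.995 CPM in injured libraries, with no overlap. The rise was 0.98 ± 0.21 on the log2 scale against naïve (FDR = 0.00264) and 0.93 ± 0.25 against contralateral (FDR = 0.0156), and the second call was lost without day 7 contralateral replicate 2 (FDR = 0.0585), without replicate 3 of that group (FDR = 0.0676) or without day 7 injured replicate 3 (FDR = 0.0817). With the length offset it was lost as well, at 0.64 (FDR = 0.214).

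Ephb1 completed the B class, with 1.09 ± 0.173 CPM in naïve and 1.68 ± 0.292 CPM in day 7 injured cartilage. It was called against naïve only (log2 fold change 0.65 ± 0.23, FDR = 0.0406), with 0.71 ± 0.27 and FDR = 0.0840 against contralateral, and the call was lost when any of 6 libraries was left out, naïve replicates 2, 3, 4 and 6 and day 7 injured replicates 2 and 3, with FDR values up to 0.192. It was also lost with protein-coding transcripts alone (0.46, FDR = 0.210), without the count filter, with DESeq2 and with other groups in the fit. Epha4, which binds ephrins of both classes, was called in both comparisons (0.60 ± 0.14, FDR = 0.00597, and 0.97 ± 0.18, FDR = 0.00109). Its leading transcript, Epha4-205, is annotated for nonsense-mediated decay and held 34.1% ± 27.5 of the gene's TPM in naïve and 65.7% ± 22.7 in day 7 injured libraries. All transcripts without a coding annotation together held 59.9% ± 39.9 of its counts in naïve and 80.2% ± 14.2 in day 7 injured libraries. With protein-coding transcripts alone its log2 fold change was -0.43 in both comparisons (FDR = 0.686 against naïve and 0.765 against contralateral). The call against naïve was also lost without naïve replicate 2, 5 or 6, at 0.56 to 0.58, under the fold limit, and with other groups in the fit (0.58), and both calls were lost with the length offset (0.50, FDR = 0.0610, and 0.69, FDR = 0.0718). Epha10, a receptor without kinase activity, went the other way, from 0.446 ± 0.144 CPM in naïve to 0.103 ± 0.0203 CPM in day 7 injured libraries, where no library held more than 2 counts. Against a floor of 3 counts per library this is at least 2.88-fold lower than naïve (FDR = 0.00164). The call against contralateral (FDR = 0.0277) was lost without any single one of day 7 contralateral replicates 1 and 2 and the 3 day 7 injured libraries, with FDR values of 0.0547 to 0.143, and also without the count filter, with DESeq2, with limma-voom and with the length offset (FDR = 0.0560 to 0.109). The remaining tested receptors, Epha1, Epha2, Epha5 and Epha7, were called in neither comparison.

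**Figure D3:**
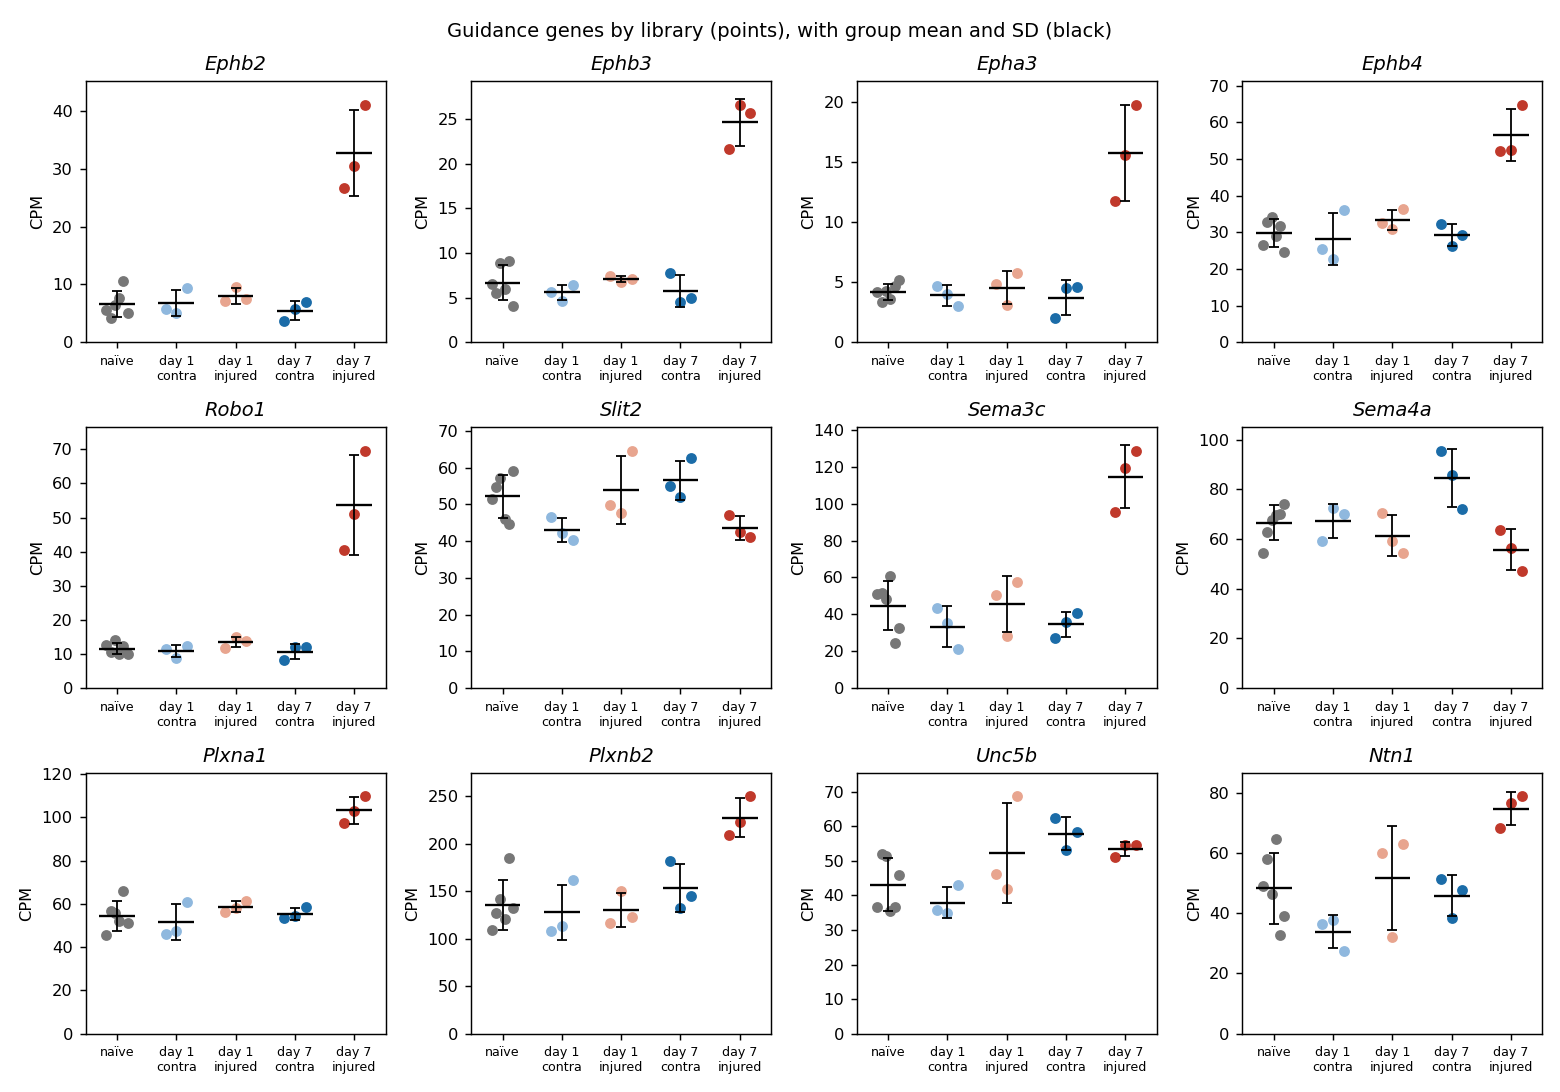
CPM of 12 guidance genes in each of the 18 libraries, with each axis starting at 0. Points are libraries, black lines are group means with 1 SD, and the red day 7 injured points lie above all others for Ephb2, Ephb3, Epha3, Ephb4, Robo1, Sema3c, Plxna1, Plxnb2 and Ntn1, but not for Slit2, Sema4a and Unc5b.

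On the ligand side, all 4 tested ephrins of the A class, which are tethered to the membrane by a lipid anchor, and 2 of the 3 of the B class, which span it, were higher than naïve. The 2 with the largest folds, Efna4 and Efna2, were under 1 CPM in every naïve library. Efna4 was at 0.315 to 0.729 CPM in naïve libraries (median 0.550), 0.358, 0.405 and 0.304 CPM in day 1 contralateral and 0.323, 0.540 and 0.539 CPM in day 1 injured libraries. At day 7 it was at 1.09, 0.579 and 0.237 CPM in contralateral and 2.18, 1.52 and 1.43 CPM in injured libraries, which do not overlap. The log2 fold change was 1.75 ± 0.28 against naïve (FDR = 0.000217) and 1.56 ± 0.42 against contralateral (FDR = 0.0154), the second of which was lost without day 7 contralateral replicate 3 (FDR = 0.0746) or day 7 injured replicate 1 (FDR = 0.0664), or with other groups in the fit (FDR = 0.0945). Exons of Efna4 share bases with a gene on the opposite strand. Efna2 was at 0.444 to 0.875 CPM in naïve libraries (median 0.644), 0.501, 0.589 and 0.864 CPM in day 1 contralateral and 0.614, 1.05 and 0.787 CPM in day 1 injured libraries. At day 7 its contralateral values of 1.32, 0.758 and 0.642 CPM overlapped the injured values of 2.23, 0.887 and 2.82 CPM. It was called at 1.62 ± 0.31 against naïve (FDR = 0.00124) and 1.21 ± 0.39 against contralateral (FDR = 0.0374), and the second call was lost without any one of day 7 contralateral replicates 2 and 3 or day 7 injured replicates 1 and 3, with FDR values of 0.0949 to 0.221, and also without the count filter (FDR = 0.0561) and with other groups in the fit (FDR = 0.155).

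Efna5 and Efnb2 rose by smaller folds. Efna5 ran from 3.64 to 5.25 CPM in naïve libraries (median 5.02), and was at 4.62, 3.27 and 5.28 CPM in day 1 contralateral and 5.78, 5.28 and 6.09 CPM in day 1 injured libraries. At day 7 it was at 4.83, 3.66 and 4.97 CPM in contralateral and 7.86, 8.11 and 10.5 CPM in injured libraries, the highest of the 18, with log2 fold changes of 0.88 ± 0.15 (FDR = 0.000462) and 0.98 ± 0.19 (FDR = 0.00134). Efnb2, the ligand of Ephb4 and a marker of arteries, ran from 11.9 to 19.3 CPM in naïve libraries (median 16.3), and was at 12.8, 13.8 and 12.4 CPM in day 1 contralateral and 14.5, 12.5 and 18.7 CPM in day 1 injured libraries. Its day 7 values were 14.6, 14.1 and 16.2 CPM in contralateral and 21.7, 23.4 and 30.7 CPM in injured libraries, also without overlap. The log2 fold changes were 0.70 ± 0.15 (FDR = 0.00248) and 0.75 ± 0.17 (FDR = 0.00524), and without day 7 injured replicate 3 they were 0.54 and 0.58, both just under 1.5-fold.

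Efna1 and Efnb1 were called against naïve only, at 0.83 ± 0.14 (FDR = 0.000342) and 0.95 ± 0.16 (FDR = 0.000457). Against contralateral they were at 0.40 ± 0.22 and 0.15 ± 0.22. In both genes the contralateral library that stands apart was high, at 12.7 CPM for Efna1 and 30.3 CPM for Efnb1, where its 2 fellow libraries held 7.58 and 6.18 CPM and 18.2 and 19.4 CPM. Without that library Efna1 was called against contralateral as well (0.77, FDR = 0.00830), while Efnb1 was not. Efnb3 was called in neither comparison.

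Of the Slit receptors only Robo1 was called, and no Slit was. Robo1 ran from 9.87 to 14.1 CPM in naïve libraries (median 11.4), with 11.4, 8.90 and 12.3 CPM in day 1 contralateral and 11.8, 14.8 and 13.8 CPM in day 1 injured libraries. At day 7 it was at 8.18, 12.0 and 11.9 CPM in contralateral and 40.5, 51.1 and 69.7 CPM in injured libraries. The lowest injured library was thus far above the highest of the other 15, and the log2 fold changes of 2.24 ± 0.16 (4.71-fold, FDR = 8.48e-08) and 2.32 ± 0.21 (4.99-fold, FDR = 6.44e-07) were those with the lowest FDR of the whole set. The transcript Robo1-201 held 57.1% ± 14.7 of the gene's TPM in naïve and 80.4% ± 3.42 in day 7 injured libraries. Robo2 and Robo4, the latter a receptor of endothelial cells, were as abundant as Robo1 in naïve cartilage per length, but Robo2 was at 8.05 ± 2.07 CPM in naïve and 7.15 ± 0.682 CPM in day 7 injured libraries (log2 fold change -0.15 ± 0.25, FDR = 0.686) and Robo4 at 7.03 ± 1.12 and 9.62 ± 2.78 CPM (0.47 ± 0.19, FDR = 0.0814). Robo3 was not called either.

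The Slits, secreted ligands of Robo1, were abundant but did not pass the test. Slit2 ran from 44.6 to 59.1 CPM in naïve libraries (median 53.2) and was at 54.9, 52.1 and 62.6 CPM in day 7 contralateral and 47.1, 42.4 and 41.0 CPM in day 7 injured libraries. Its injured libraries were below all 3 contralateral ones but overlapped the naïve ones (log2 fold change -0.38 ± 0.13 and FDR = 0.0520 against contralateral, -0.24 ± 0.11 and FDR = 0.106 against naïve). Slit3 was at 54.6 ± 8.82 CPM in naïve and 64.6 ± 5.003 CPM in day 7 injured libraries, at 0.26 ± 0.16 against naïve (FDR = 0.236). Slit1 was scarce at 0.205 ± 0.114 TPM in naïve cartilage.

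Among the plexins, the receptors of semaphorins, Plxna1 and Plxna3 rose in both comparisons. Plxna1 ran from 45.5 to 66.0 CPM in naïve libraries (median 54.0), with 46.0, 47.4 and 61.0 CPM in day 1 contralateral and 56.3, 58.3 and 61.3 CPM in day 1 injured libraries. Its day 7 values were 53.5, 54.3 and 58.5 CPM in contralateral and 97.2, 102.8 and 109.7 CPM in injured libraries, far apart, with log2 fold changes of 0.94 ± 0.11 (FDR = 1.07e-05) and 0.90 ± 0.12 (FDR = 6.08e-05). Plxna3 was at 3.31 to 4.94 CPM in naïve libraries (median 3.95), 3.40, 3.24 and 3.81 CPM in day 1 contralateral and 3.65, 3.40 and 4.35 CPM in day 1 injured libraries. Its day 7 values of 5.07, 3.25 and 3.62 CPM in contralateral and 7.04, 8.24 and 9.02 CPM in injured libraries did not overlap, and it was at 1.03 ± 0.13 (FDR = 3.11e-05) and 1.04 ± 0.18 (FDR = 0.000529). Plxnb1, the receptor of Sema4d, and Plxnb2, a related receptor of class 4 semaphorins, were called against naïve only, at 0.90 ± 0.12 (FDR = 3.31e-05) and 0.76 ± 0.16 (FDR = 0.00195). Plxnb2 was at 136 ± 26.4 CPM in naïve and 209, 223 and 249.6 CPM in day 7 injured libraries, above the 182, 133 and 145 CPM of the contralateral ones. Against contralateral Plxnb1 was at 0.43 ± 0.16 (FDR = 0.0757) and Plxnb2 at 0.57 ± 0.19 (FDR = 0.0409, under 1.5-fold). Without day 7 contralateral replicate 1 both were called there, at 0.66 (FDR = 0.00612) and 0.73 (FDR = 0.0206). Plxnd1, a receptor of vessels and the highest plexin per length, was at 126 ± 9.48 CPM in naïve and 162 ± 4.44 CPM in day 7 injured libraries. Its rise of 0.39 ± 0.09 (FDR = 0.00475) was under 1.5-fold, and against contralateral, at 154 ± 12.9 CPM, it was at 0.07 ± 0.11 (FDR = 0.704).

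Of the 7 secreted class 3 semaphorins 4 were higher than naïve and the same number higher than contralateral, with medians of 0.59 and 0.83 on the log2 scale, and of the 13 membrane-bound ones of classes 4 to 7 there were 5 and 2, with medians of 0.28 and 0.20. When day 7 contralateral replicate 1 was left out, the membrane-bound Sema4c and Sema4f were also higher than contralateral and the secreted Sema3a was not. That the classes differ was not tested. Sema3c, a secreted cue of heart and vessel development, was the highest per length of those called in both comparisons. It ran from 24.6 to 60.6 CPM in naïve libraries (median 49.6), with 43.5, 35.0 and 21.2 CPM in day 1 contralateral and 50.5, 28.4 and 57.4 CPM in day 1 injured libraries. Day 7 brought values of 27.2, 35.5 and 40.8 CPM in contralateral and 95.6, 119.4 and 129 CPM in injured libraries, above every other library, and its log2 fold change was 1.38 ± 0.27 against naïve (FDR = 0.00117) and 1.73 ± 0.32 against contralateral (FDR = 0.000945).

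Sema3b was at 5.45 to 10.5 CPM in naïve libraries (median 9.005), 8.70, 6.92 and 4.95 CPM in day 1 contralateral and 9.79, 5.34 and 11.6 CPM in day 1 injured libraries. With 14.4, 7.76 and 10.3 CPM in day 7 contralateral and 27.1, 25.3 and 29.8 CPM in day 7 injured libraries it rose by 1.68 ± 0.22 over naïve (FDR = 4.43e-05) and 1.35 ± 0.29 over contralateral (FDR = 0.00303) on the log2 scale. Sema3f, which like Sema3c signals through neuropilin 2, was at 7.38 to 15.95 CPM in naïve libraries (median 9.23), 7.84, 7.47 and 14.4 CPM in day 1 contralateral and 12.7, 11.6 and 10.98 CPM in day 1 injured libraries. Its day 7 values were 11.4, 7.93 and 9.77 CPM in contralateral and 22.8, 20.7 and 25.3 CPM in injured libraries, and it rose by 1.13 ± 0.23 (FDR = 0.00164) and 1.25 ± 0.27 (FDR = 0.00320). Neither gene had an injured library of day 7 within the range of another group. Sema3a, best known for repelling sensory axons and as an osteoprotective factor of bone, was at 18.7 ± 2.70 CPM in naïve and 27.7 ± 4.05 CPM in day 7 injured libraries. It passed the fold limit narrowly, at 0.59 ± 0.14 (FDR = 0.00581) and 0.63 ± 0.18 (FDR = 0.0183), and was lost in 12 of 17 alternatives against naïve, 6 of them leaving out naïve replicate 1, 3, 5 or 6 or day 7 injured replicate 2 or 3 (log2 fold change 0.52 to 0.58). Against contralateral it was lost without day 7 contralateral replicate 1 or day 7 injured replicate 2 or 3 (FDR = 0.0593 to 0.0748), with other groups in the fit (FDR = 0.0534) and with protein-coding transcripts alone (0.56, under the fold limit), and with the length offset it was at 0.23 (FDR = 0.476).

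Of the membrane semaphorins 2 were called in both comparisons. Sema6a, a transmembrane ligand of class A plexins, ran from 11.6 to 16.3 CPM in naïve libraries (median 13.2), with 12.7, 10.9 and 12.2 CPM in day 1 contralateral and 13.3, 12.8 and 15.2 CPM in day 1 injured libraries. At day 7 its 9.98, 14.4 and 13.01 CPM in contralateral and 17.8, 21.5 and 22.8 CPM in injured libraries did not overlap, with 0.64 ± 0.11 (FDR = 0.000450) and 0.72 ± 0.15 (FDR = 0.00212), and without day 7 injured replicate 3 it was at 0.57 against naïve, under the fold limit. It was at 0.58 there with protein-coding transcripts alone, and both calls were lost with the length offset (0.51 against naïve, and 0.49 with FDR = 0.211 against contralateral). Sema4g was scarce, at 1.14 to 1.78 CPM in naïve libraries (median 1.55), 1.47, 1.32 and 0.981 CPM in day 1 contralateral and 1.23, 1.46 and 1.202 CPM in day 1 injured libraries. It held 0.546, 1.11 and 1.22 CPM in day 7 contralateral and 1.45, 2.34 and 2.96 CPM in day 7 injured libraries, which overlap the naïve range. Its call against naïve (0.61 ± 0.22, FDR = 0.0498) was lost in 13 of 17 alternatives, among them leaving out naïve replicate 3, 4, 5 or 6 or day 7 injured replicate 2 or 3 (FDR = 0.0666 to 0.327), and that against contralateral (1.17 ± 0.30, FDR = 0.0106) without day 7 injured replicate 3 (FDR = 0.0808), with the length offset (0.79, FDR = 0.101), with protein-coding transcripts alone (FDR = 0.200) and with other groups in the fit (FDR = 0.0919).

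Sema4c, Sema4f and Sema5b were called against naïve only. Sema4c was at 0.90 ± 0.13 (FDR = 7.37e-05) and Sema4f at 0.76 ± 0.14 (FDR = 0.000694), and without day 7 contralateral replicate 1 both were called against contralateral too, at 0.91 (FDR = 0.00100) and 0.59 (FDR = 0.0297). Without day 7 injured replicate 1 Sema4f fell to 0.55 against naïve, under the fold limit. Sema5b, at 0.408 ± 0.0808 CPM in naïve and 0.808 ± 0.426 CPM in day 7 injured libraries, was at 1.04 ± 0.34 (FDR = 0.0309), and its call was lost without naïve replicate 1, 3 or 6 or day 7 injured replicate 1 or 3 (FDR = 0.0530 to 0.171), and also without the count filter, with limma-voom, with the length offset and with other groups in the fit (FDR = 0.0578 to 0.134). Against contralateral it was at 1.26 (FDR = 0.0687), and it was called there without day 7 contralateral replicate 3 (FDR = 0.0234) or day 7 injured replicate 2 (FDR = 0.0180) and with protein-coding transcripts alone (FDR = 0.0464). The leukocyte semaphorins that led in naïve cartilage did not rise. Sema4d was at 120.0 ± 8.63 CPM in naïve, 154, 144 and 144 CPM in day 7 contralateral and 115, 109 and 113 CPM in day 7 injured libraries, at -0.08 ± 0.07 against naïve (FDR = 0.428) and -0.39 ± 0.09 against contralateral (FDR = 0.00358, under 1.5-fold). Sema4a was at 66.5 ± 7.03 CPM in naïve, 95.6, 85.9 and 72.2 CPM in day 7 contralateral and 63.5, 56.5 and 47.1 CPM in day 7 injured libraries. It was called lower than contralateral (-0.60 ± 0.14, FDR = 0.00598) and not lower than naïve (-0.24 ± 0.12, FDR = 0.142). Without day 7 contralateral replicate 1 or day 7 injured replicate 3 its change was -0.48 or -0.50, which is under the fold limit. The call was also lost with the length offset (-0.54), with protein-coding transcripts alone (-0.56) and with other groups in the fit (FDR = 0.0519).

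Of the netrins 1 was called in both comparisons and 1 against naïve only. Ntn3, a scarce netrin, was at 1.71 to 2.56 CPM in naïve libraries (median 2.39), 2.29, 1.58 and 1.85 CPM in day 1 contralateral and 2.42, 2.13 and 2.28 CPM in day 1 injured libraries. The day 7 values were 4.13, 2.10 and 1.72 CPM in contralateral and 5.49, 6.72 and 6.198 CPM in injured libraries, higher than all others, with 1.43 ± 0.15 (FDR = 3.53e-06) and 1.26 ± 0.25 (FDR = 0.00193). The call against contralateral was lost with the length offset (1.25, FDR = 0.0638). Exons of Ntn3 share bases with Tbc1d24 on the same strand and with a gene on the opposite strand, so its reads are uncertain. Ntn1, the netrin with the highest mean TPM in naïve libraries, ran from 32.8 to 64.4 CPM there. It was at 51.3, 38.4 and 47.8 CPM in day 7 contralateral and 68.3, 76.7 and 78.7 CPM in day 7 injured libraries. It was called against naïve (0.65 ± 0.21, FDR = 0.0297), with 0.70 ± 0.24 and FDR = 0.0534 against contralateral. The call was lost without naïve replicate 3, 5 or 6 or day 7 injured replicate 2 or 3, where the log2 fold change was 0.55 to 0.63, and with protein-coding transcripts alone (0.53, FDR = 0.0757). Against contralateral it was called with DESeq2 (FDR = 0.0366) and with other groups in the fit (FDR = 0.0176). Ntn4 missed the threshold in both comparisons (0.59 ± 0.23, FDR = 0.0686, and 0.75 ± 0.26, FDR = 0.0573).

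None of the 4 netrin receptors Unc5a, Unc5b, Unc5c and Unc5d was called at day 7 against either control. Unc5b was at 43.1 ± 7.62 CPM in naïve, 57.9 ± 4.70 CPM in day 7 contralateral and 53.5 ± 1.97 CPM in day 7 injured libraries. The injured values overlapped those of both controls. The contralateral libraries, at 53.0 to 62.4 CPM, lay above the naïve ones, at 35.6 to 52.0 CPM, and the difference was not called (0.43 ± 0.15, FDR = 0.251). Unc5cl, which shares only part of its sequence with these receptors, was at 1.72 to 2.82 CPM in naïve libraries (median 2.11), 2.72, 2.80 and 2.36 CPM in day 1 contralateral and 2.52, 2.54 and 1.66 CPM in day 1 injured libraries. With 4.60, 1.52 and 2.20 CPM in day 7 contralateral and 1.32, 1.27 and 1.34 CPM in day 7 injured libraries it was the lowest of all in the injured group. It was lower by -0.70 ± 0.20 against naïve (FDR = 0.0161) and -1.03 ± 0.32 against contralateral (FDR = 0.0336) on the log2 scale. The first call was lost without day 7 injured replicate 2 (FDR = 0.0538) or 3 (FDR = 0.0530), and the second without day 7 contralateral replicate 1 (-0.49, FDR = 0.222) or any one of the injured libraries (FDR = 0.0779 to 0.0973). With other groups in the fit both were lost (FDR = 0.0778 and 0.161), and the second also with limma-voom, the length offset and protein-coding transcripts alone (FDR = 0.109 to 0.131).

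At day 1 post injury no guidance gene was called, against naïve or against contralateral. That was true of every gene tested: edgeR's test called 0 of 21129 in each, with 959 and 1383 genes at an unadjusted p under 0.05, and 0 of the 63 guidance genes were called under any alternative on counts, DESeq2 and limma-voom included. With the deposited TPM 20 of the 63 were called higher than naïve and 0 lower, where 22.8% of all genes were called higher and 0.0899% lower, with medians of 0.58 over the 63 and 0.50 over all genes, and 0 were called against contralateral. At an unadjusted p under 0.05 there were 2 of the 63 against naïve (Epha5 and Efnb1, both upwards) and 8 against contralateral, of which Ntn1, Sema3d, Unc5b, Efnb1, Plxna2, Plxnb1 and Slit2 lay above 0 and Sema4b below. The median log2 fold change of the 63 genes was 0.06 against naïve and 0.23 against contralateral, beside -6.05e-05 and -0.0015 over all tested genes. In day 1 contralateral against naïve knees the median of the 63 was -0.12, beside -0.0011 over all tested genes. No guidance gene was called in contralateral against naïve knees either. At day 7 there were 13 of the 63 at an unadjusted p under 0.05, with an FDR of 0.248 or more, and at day 1 there were 3, and 3220 and 554 genes of all tested. The largest change in day 7 contralateral knees was that of Efnb1, at 0.78 ± 0.18 on the log2 scale (FDR = 0.248), or 0.51 ± 0.18 (FDR = 0.878) without day 7 contralateral replicate 1.

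Between injured knees of the 2 days, 23 of the 63 genes were higher at day 7 than at day 1 and 5 lower, where 9.04% of all genes were called higher and 6.38% lower. Robo1 (2.01 ± 0.19, FDR = 5.08e-06), Ephb2 (2.04 ± 0.30, FDR = 0.000226), Epha3 (1.81 ± 0.25, FDR = 0.000104) and Ephb3 (1.81 ± 0.24, FDR = 7.59e-05) were again among the largest, beside the scarce Efna4 (1.89 ± 0.33, FDR = 0.000876). The 5 lower genes were Epha1, Epha5, Epha10, Unc5c and Unc5cl. Fewer were called lower when 1 library was left out, with 2 genes lower without any one of the day 1 injured libraries. There were 0 without day 7 injured replicate 1, 1 without replicate 2 and 2 without replicate 3. None was lower at an FDR of 0.01. The share of all genes called under these settings is not given. Epha5, a receptor of A-class ephrins, was at 5.12 ± 0.780 CPM in day 1 injured and 2.59 ± 0.655 CPM in day 7 injured libraries (-0.96 ± 0.28, FDR = 0.0210), and Unc5c at 14.5 ± 1.14 and 9.16 ± 1.17 CPM (-0.65 ± 0.19, FDR = 0.0254). With the deposited TPM 4 were higher (Ephb2, Ephb3, Robo1 and Efna4) and 24 lower, where 1.64% of all genes were called higher and 63.3% lower, with medians of -0.49 over the 63 and -0.79 over all genes. The 2 groups came from different mice, and the day cannot be told apart from other differences between them.

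Whether the effect of injury itself differed between the days was tested by an interaction, day 7 injured against contralateral minus the same at day 1. Here 5 guidance genes had a higher effect at day 7 and 1 a lower, where 3.53% of all 21262 genes were called higher and 0.245% lower. The 5 were Ephb2 (2.32 ± 0.43, FDR = 0.00475), Robo1 (2.01 ± 0.28, FDR = 0.000473), Epha3 (1.82 ± 0.41, FDR = 0.0151), Ephb3 (1.78 ± 0.36, FDR = 0.00817) and Plxna1 (0.71 ± 0.17, FDR = 0.0281). In these the effect at day 1 was 0.24 ± 0.30, 0.30 ± 0.19, 0.22 ± 0.25, 0.34 ± 0.24 and 0.18 ± 0.13, none of them called. For Slit2 the difference was -0.71 ± 0.18 (FDR = 0.0378), from 0.32 ± 0.12 at day 1 to -0.38 ± 0.13 at day 7, neither of which was called. Leaving out single libraries left between 3 and 8 genes called, 3 without day 7 injured replicate 3 and 8 without day 7 contralateral replicate 1. For these fits the share of all genes called is not given. With the deposited TPM 0 guidance genes were called, where 0.165% of all genes were called higher, and the difference lay between 1.24 and 1.78 for Ephb2, Ephb3, Robo1 and Epha3 (FDR = 0.581 to 0.856). In the test on counts Slit2 was the only gene with a lower effect. No gene had one when day 1 contralateral replicate 2 or 3, day 1 injured replicate 1 or 3, day 7 contralateral replicate 3 or day 7 injured replicate 2 or 3 was left out.

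**Figure D4:**
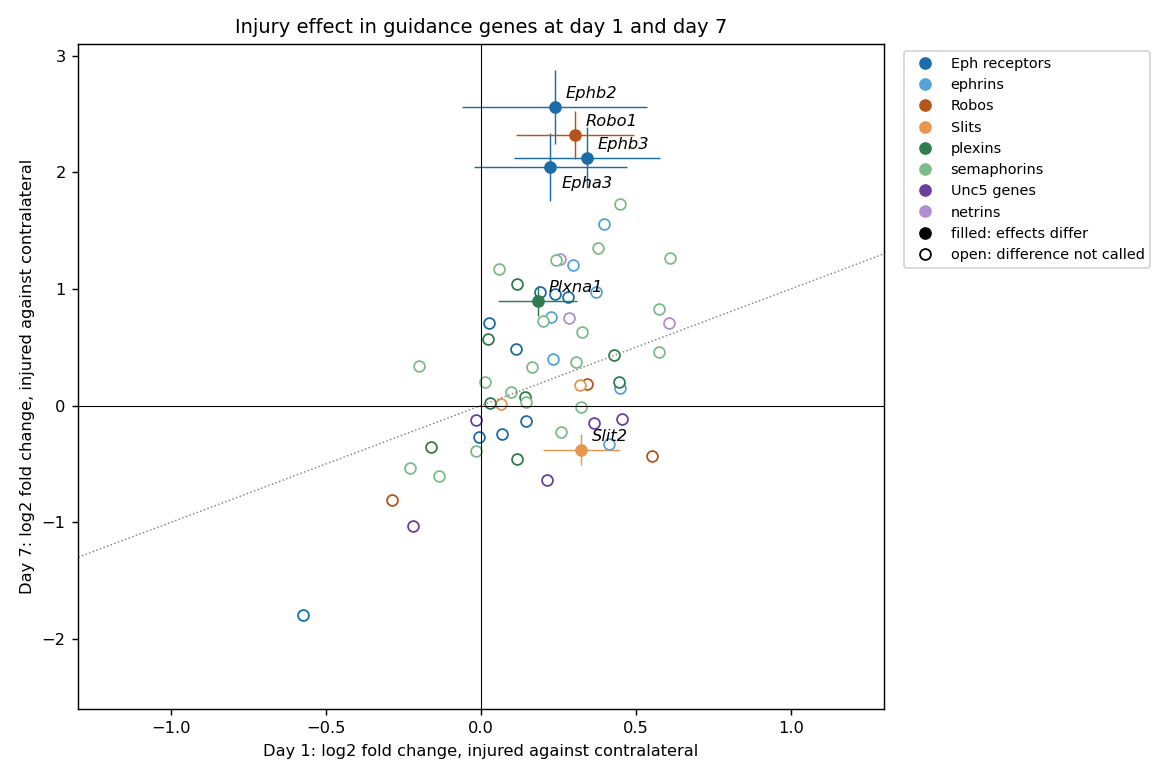
Log2 fold change of injured against contralateral cartilage at day 1 (horizontal) and day 7 (vertical) for the 63 tested guidance genes, with the dotted line where both are equal. Filled, named points with bars of 1 SE are the 6 genes whose effects differed between the days, with Ephb2, Robo1, Epha3 and Ephb3 above 2 at day 7 and within 0.4 of 0 at day 1, and Slit2 below 0 at day 7.

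The partners of these families were examined through a list of 20 co-receptors and linked receptors and a list of 46 cytoplasmic proteins that carry the signal. Of the 18 tested co-receptors and related genes 7 were higher than naïve and 6 higher than contralateral, and of the 46 cytoplasmic genes 10 and 9, where 10.4% and 9.33% of all genes were. None was lower in either list, where 6.11% and 3.23% of all genes were. With the deposited TPM 4 and 0 of the first list were higher and 5 and 3 of the second, and 1 and 4 were lower than naïve. The median log2 fold changes against naïve were 0.68 and 0.30. Neo1, the netrin and repulsive guidance receptor neogenin, was at 57.3 ± 5.76 CPM in naïve and 139 ± 24.7 CPM in day 7 injured libraries (log2 fold change 1.29 ± 0.11, FDR = 4.80e-07). Its ligands Rgma and Rgmb rose as well, at 0.68 ± 0.17 (FDR = 0.00716) and 0.67 ± 0.18 (FDR = 0.0132). Dcc, another netrin receptor, was at 0.304 ± 0.194 CPM in naïve libraries. Ptk7, a receptor-like partner of plexins, was at 1.61 ± 0.15 (FDR = 1.58e-06), Flrt2, a ligand of Unc5 receptors, at 1.13 ± 0.14 (FDR = 1.91e-05), and the integrin subunit Itgb1 at 1.01 ± 0.09 (FDR = 8.41e-07). Nrp2, the neuropilin that Sema3c and Sema3f bind, was at 160 ± 19.3 CPM in naïve and 256 ± 32.5 CPM in day 7 injured libraries and was called against naïve only (0.70 ± 0.12, FDR = 0.000550, and 0.43, FDR = 0.0807 against contralateral).

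Among the cytoplasmic genes the largest rise was that of the kinase Pak3, at 2.05 ± 0.16 (FDR = 2.02e-07). Dpysl3, a collapsin response mediator that semaphorin signals act on, rose by 1.63 ± 0.15 (FDR = 1.06e-06) from 91.1 ± 9.63 to 278 ± 35.6 CPM. Farp1, which binds plexins of the A class, was at 1.45 ± 0.14 (FDR = 1.61e-06), Mical2, of the family of actin oxidases that plexins use, at 1.08 ± 0.16 (FDR = 0.000142), Srgap1, a Robo-binding regulator of small GTPases, at 1.09 ± 0.11 (FDR = 4.30e-06), and the actin regulator Enah at 1.03 ± 0.10 (FDR = 2.88e-06). Each of these was also called against contralateral.

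Cells other than chondrocytes express guidance genes too, and some of their markers moved with them at day 7. Of 8 markers of pericytes and smooth muscle 6 were higher than naïve and 6 higher than contralateral. Their summed level was 688 ± 132 CPM in naïve and 1042, 1019 and 1265 CPM in day 7 injured libraries, and their most abundant gene, Des, was not among those called. Of 10 markers of synovial fibroblasts 5 were higher in each comparison, from 1184 ± 351 CPM in naïve to 1512, 2043 and 2705 CPM in day 7 injured libraries. The called ones were Pdgfra, Thy1, Cd34, Dpt and Cd248, and the most abundant, Prg4, which superficial chondrocytes also express, was not. Of 10 endothelial markers 5 were higher than naïve and 3 higher than contralateral (Pecam1 at 0.71 ± 0.09, FDR = 2.89e-05, Cdh5 at 0.74 ± 0.13, FDR = 0.000564, and Emcn at 1.04 ± 0.14, FDR = 6.72e-05), with a sum of 590 ± 39.8 CPM in naïve and 692, 686 and 759 CPM in day 7 injured libraries, while Vwf, the most abundant, was at 255 ± 25.0 CPM in naïve and 208, 188 and 190 CPM in day 7 injured libraries, below every naïve library (-0.37 ± 0.12, FDR = 0.0271, under 1.5-fold). Without day 7 contralateral replicate 1 the counts against contralateral were 6, 5 and 4 for these 3 lists. With the deposited TPM 3, 4 and 1 markers were higher than naïve and 1, 3 and 0 higher than contralateral. On that scale 1 synovial fibroblast marker was lower than naïve. The part of these cells in the rise of the guidance genes was not tested. Of 11 chondrocyte markers 4 were higher than naïve and 5 higher than contralateral, with a sum of 7268, 8300 and 8157 CPM in day 7 injured libraries, and 4 were higher than contralateral without day 7 contralateral replicate 1.

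Neuronal markers were low in all groups. Of 12 neuronal markers 7 could be tested, Nefm and Elavl4 held at most 3 counts in every library, and Syt1 and Nefl were at 0 in day 7 injured libraries. The sum over all 12 was 9.59 ± 0.892 CPM in naïve and 14.1, 14.5 and 15.5 CPM in day 7 injured libraries, led by Uchl1. Stmn2 (1.09 ± 0.27, FDR = 0.00722) and Gap43 (1.81 ± 0.50, FDR = 0.0142), both proteins of growing axons, were higher in both comparisons, and Prph, of peripheral neurons, was higher than naïve (2.30 ± 0.48, FDR = 0.00209). All 3 were below 4 CPM in the mean of day 7 injured libraries. With the deposited TPM 2 of the 7 tested neuronal markers were higher than naïve and 0 higher than contralateral. None of the 9 tested Schwann cell markers was called, and their summed level was 89.3 ± 8.85 CPM in naïve and 84.1, 76.3 and 70.8 CPM in day 7 injured libraries, led by Mbp. The erythroid sum was 22523 ± 5464 CPM in day 7 injured libraries, with 4 of 7 genes lower in each comparison and Hbb-bs the most abundant. Of 6 adipocyte markers 3 were lower than naïve and 4 lower than contralateral, led by Cfd, and of 9 neutrophil and marrow markers 2 and 3, led by Ngp. Of 10 macrophage markers none was higher and Cd163 was lower than contralateral. Among 10 osteoblast and osteocyte markers Ibsp was higher than naïve, Mepe lower than naïve and Sost lower in both comparisons. Ctsk, of 9 osteoclast markers, was higher than naïve and Nfatc1 higher than contralateral. Ms4a1, of 7 B cell markers, and Myh2, of 9 skeletal muscle markers, were lower than naïve, and Birc5, of 8 proliferation genes, was lower than contralateral. Without day 7 contralateral replicate 1 the markers lower than contralateral were 0 erythroid, 1 adipocyte, 2 neutrophil and marrow, 0 macrophage, 0 proliferation, 2 osteoblast and osteocyte and 1 B cell marker, and no osteoclast marker was higher. With the deposited TPM 7 erythroid, 7 neutrophil and marrow, 6 proliferation and 3 adipocyte markers were lower than naïve, where 15.3% of all genes were. So were 2 osteoblast and osteocyte, 2 skeletal muscle, 1 macrophage and 1 B cell marker, and 1 osteoclast marker was higher. Against contralateral 1 adipocyte and 1 osteoblast and osteocyte marker were lower on that scale, and no other marker of these lists was called. The part of these shifts in the guidance genes was not tested.

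How the counts arose differed between genes. Besides Epha4, transcripts without a coding annotation held 42.0% ± 31.4 of the naïve counts of Sema4g, 40.0% ± 11.6 of those of Unc5cl and 33.1% ± 4.50 of those of Sema3f, but 3.23% ± 2.06 for Ephb2, 3.31% ± 3.26 for Ephb3, 10.9% ± 3.71 for Epha3 and 12.9% ± 3.14 for Robo1. Exons of 17 of the 67 genes share bases with another gene, 15 of them with one on the opposite strand, among them Ephb4 with Zan and Plxna1 with a predicted gene. The library kit keeps strand, but whether the counting used it is not stated in the sources used here, so reads in these shared bases are uncertain. The 4 genes with the largest rises share no exonic bases with another gene.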

How the data were processed

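RNA-seq libraries were made by the authors from total RNA with a stranded, ribosomal RNA-depleting kit, reads were trimmed with Trimmomatic and transcripts were quantified with kallisto (mouse, GRCm38 per the methods, GRCh38 per the labels). The deposited estimated counts (expected counts) and TPM values per transcript were summed per gene through GENCODE vM21, which matched 98.3% of 137436 transcripts and left 0.667% to 3.90% of counts per library unmatched. Deposited effective lengths served only an alternative. Groups came from the labels, and replicates were numbered in accession order. Rounded counts were tested with edgeR 4.0.16 (quasi-likelihood, TMM, filterByExpr, R 4.3.3) over all genes: 15 libraries where day 7 contralateral was not compared, otherwise 18, with Benjamini-Hochberg FDR. CPM used TMM over 18 libraries and TPM compared genes within naïve libraries. Alternatives included limma-voom (limma 3.58.1), DESeq2 1.42.0, and each library left out, and steps were tested on simulated data. Added after the data were seen were limma (trend) on log2(TPM + 0.1) and marker lists without day 7 contralateral replicate 1. The authors also removed 1 sample for low mapping and modelled mouse pools, neither of which could be repeated here.

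Named genes were the guidance genes called alike in both day 7 comparisons (the 20 largest against naïve, with every library shown from a mean of 1 CPM), those called in only one comparison, the highest in TPM of each family, and the 10 largest other guidance genes called in both; Rgma, Rgmb, Nrp2, Dcc and uncalled genes in the text were added after their values were seen. Members, lists and tests were chosen with earlier results of these data known.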

Additional observations from a re-analysis of the deposited data

Results flagged for a closer look

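The effect of injury (injured against contralateral) differed between day 7 and day 1 in 6 guidance genes by edgeR's interaction test. The difference in log2 fold change was 2.318 for Ephb2, 2.012 for Robo1, 1.821 for Epha3, 1.778 for Ephb3, 0.7094 for Plxna1 and -0.7057 for Slit2. The call of Slit2 was lost without any one of 7 libraries and under 5 other settings, and with the deposited TPM none of the 6 was called.

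Of 37 guidance genes examined for a naïve library far from the other 5, 2 had one, where chance gives about 1 in 20. Efna5 was low in naïve replicate 2, at 3.645 CPM with the others at 4.889 to 5.252 CPM, and Sema3a was high in naïve replicate 4, at 23.77 CPM with the others at 16.39 to 18.62 CPM.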

How the results depend on the processing

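Of the 22 guidance genes called in both day 7 comparisons, 11 were called in every alternative on counts of both: Efna5, Epha3, Ephb2, Ephb3, Ephb4, Plxna1, Plxna3, Robo1, Sema3b, Sema3c and Sema3f. Of the 9 called against naïve only, 5 were called against naïve in every alternative on counts. Over both comparisons of the genes called in either, and so without genes called under an alternative alone, 866 single-gene values kept direction and side of the threshold, 112 lost the call, 10 gained it and 3 changed sign. Those 3 were Epha4 with protein-coding transcripts only, at -0.43 against naïve and -0.43 against contralateral, and Efnb1 against contralateral without day 7 contralateral replicate 2, at -0.00067 (0.43 without replicate 1 of that group). With limma on the deposited TPM, added later, 4 of the 11 were called higher in both comparisons, 36 single-gene values lost the call, 1 gained it and 0 changed sign. On that scale there were 17 calls against naïve, 12 higher and 5 lower, 5 against contralateral, 5 higher and 0 lower, 20 at day 1 against naïve, all higher, 4 higher and 24 lower in day 7 against day 1 injured, and 0 in the interaction. No alternative on counts called any guidance gene at day 1 or in contralateral against naïve knees. Without the fold limit 6 were lower than naïve and 6 lower than contralateral. At an FDR of 0.01 the counts were 1 and 1, day 7 against day 1 injured had 18 calls with 0 lower, and the interaction 3 calls, 3 higher and 0 lower. Without the count filter the interaction had 0 lower, and limma-voom called 1 lower than contralateral. With the length offset there were 15 calls against contralateral, 1 of them lower, 2 lower than at day 1, and 0 lower in the interaction. Protein-coding transcripts gave 4 lower than naïve, 1 lower than contralateral and 0 lower in the interaction. With other groups in the fit 1 was lower than naïve, 0 lower than contralateral, 2 lower than at day 1 and 0 lower in the interaction. Leaving out single libraries gave 1 to 3 lower than naïve, 0 to 5 lower than contralateral, 0 to 2 lower than at day 1, and in the interaction 3 to 8 calls, 3 to 7 higher and 0 to 1 lower. Without day 7 contralateral replicate 1 there were 24 higher and 0 lower than contralateral. The share of all genes called is given only for the main fit, the TPM fits and the comparison with contralateral without day 7 contralateral replicate 1. The counts under the other settings therefore cannot be set against it. The causes of these changes were not tested. No paired analysis was possible because the labels give no replicate numbers and tie no library to a mouse.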
